A study of Mus musculus with 12 samples.

Results

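The 10 genes described here, Col1a1, Col1a2, Col3a1, Col4a1, Col4a2, Dcn, Des, Lrat, Rgs5 and Reln, are stellate cell and collagen genes of the mouse liver. They were chosen by gene symbol, and all 10 were found among the 41128 genes of the deposited table. Livers came from C57BL/6 mice of 6 weeks that were born germ-free, without microbes, and were weaned on day 21. Germ-free (GF) mice stayed in isolators, and conventionalized (CV) littermates lived for 3 weeks on used bedding that carries microbes. Each condition held 3 males and 3 females by the labels, 1 library per mouse, and the comparison asks how colonization after weaning relates to these transcripts. No gene was deleted and no drug was given, and used bedding is an undefined microbial mixture.

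Hepatic stellate cells lie between the sinusoid wall and the hepatocytes and store vitamin A as retinyl esters. When the liver is injured they can turn into myofibroblasts that lay down fibrillar collagen, the scar material of fibrosis. Fibrillar collagens (types I and III) form the fibres of the interstitial matrix, whereas type IV collagen forms the network of basement membranes and is also made by sinusoidal endothelium. The libraries were made from whole liver, so fewer cells of a type and less RNA per cell cannot be told apart.

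In the deposited values few of the 10 genes passed the test between GF and CV livers, in a data set in which most genes tested passed over both sexes. Col1a1 was higher in CV males and Reln was lower in CV females, and no other gene of the 10 passed the test within a sex. Over both sexes Col1a2 and Dcn were higher and Reln was lower in CV livers. Each of these calls was lost when certain single libraries were left out and under some of the alternatives.

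Values are reads per gene divided by 1 size factor per library, called normalized reads here, and the whole reads could be recovered from them. Libraries held from 5993619 to 15290835 reads. A group of 7 loci, among them both mitochondrial ribosomal RNA genes and Lars2, took between 41.8 and 69.4% of the reads in GF libraries and between 5.39 and 21.9% in CV libraries. Outside them, from 1834565 to 5303292 reads remained in GF and from 6943462 to 14411498 in CV libraries, without overlap. The 10 genes together had between 1255 and 2025 reads in a GF library and between 3757 and 6365 in a CV library, so their GF values are the less precise ones. The library labelled CV male 3 stood apart from its sex label, with 0 Y-linked reads over 4 genes and an Xist value of 2382, whereas the other 5 libraries labelled male had from 796 to 1314 Y-linked reads and an Xist value of at most 21.3. The libraries labelled female had at most 1 Y-linked read and an Xist value of at least 1045. In these genes CV male 3 thus had the pattern of a female library. CV male 3 was kept under its label. The counts of calls among the 10 genes and some single values are also given without it, and the other values of males and over both sexes include it. CV male 3 shared a high content of the abundant loci with the library labelled CV male 2 (21.9 and 21.4%), while the other CV libraries had at most 7.96%.

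The genes that define the cell type were present. All 18 stellate cell markers were in the table, and 16 of them had a mean of at least 10 normalized reads. The exceptions were Ngfr and Gfap, the latter with at most 10 reads in a library. The summed level of the 18 markers, which include Lrat, Des, Reln, Rgs5 and Dcn, ranged from 3182 to 5208 in GF and from 3827 to 6227 in CV libraries, so the conditions overlapped. Within males they did not, with 3182 to 3503 in GF and 3827 to 6227 in CV libraries. Leaving out a library can only narrow such ranges, so it is no check of this gap, and the gap was not tested. Among single genes, 22% of the 11782 tested had every CV male above every GF male. Most of the sum was Dcn, Ecm1 and Cxcl12. Over both sexes their means were 1069, 841 and 839 in GF and 1615, 1251 and 1344 in CV livers. Hgf (86.5 to 48.7), Reln (334 to 234), Rgs5 (141 to 123) and Hand2 (18.5 to 14.8) had lower CV than GF means. All other markers of this list had higher CV means, so the markers did not share a direction.

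Sequences are shown for the collagen IV pair, whose genes share their start, for Col3a1 and Lrat, a pair among those with the closest profiles, and for Reln, which was lower in CV livers. Col4a1 (ENSMUSG00000031502, chr8:11198423-11312826, minus strand) and Col4a2 (ENSMUSG00000031503, chr8:11312805-11449287, plus strand) encode the chains that are built together into the common type IV collagen. Their annotated exons overlap head to head over 22 bases, which are in capitals in the plus strand of GRCm38.p6, chr8:11312801-11312830, as printed here.
Col4a1 and Col4a2 start: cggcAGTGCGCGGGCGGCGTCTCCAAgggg

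RefSeq promoter entries on GRCm38.p6 matched 8 of the 10 genes (all but Col1a1 and Dcn). The 250 bases before the start were searched on both strands for 3 short motifs, and no match overlapped another. The letters of a TATA box, TATAAA, were in 12.4% of 32851 promoter entries. The letters of a CCAAT box, which its name spells, were in 33.8% of the entries, and those of a GC box, GGGCGG, in 32.7%. Matches are in capitals for Col3a1 (chr1:45311288-45311537, plus strand), Lrat (chr3:82903975-82904224, minus strand) and Reln (chr5:22344706-22344955, minus strand).
Col3a1: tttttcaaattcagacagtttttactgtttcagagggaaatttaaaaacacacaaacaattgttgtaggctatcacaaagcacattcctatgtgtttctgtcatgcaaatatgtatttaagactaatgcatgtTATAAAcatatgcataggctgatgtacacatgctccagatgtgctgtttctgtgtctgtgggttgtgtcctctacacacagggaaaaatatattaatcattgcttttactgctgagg
Lrat: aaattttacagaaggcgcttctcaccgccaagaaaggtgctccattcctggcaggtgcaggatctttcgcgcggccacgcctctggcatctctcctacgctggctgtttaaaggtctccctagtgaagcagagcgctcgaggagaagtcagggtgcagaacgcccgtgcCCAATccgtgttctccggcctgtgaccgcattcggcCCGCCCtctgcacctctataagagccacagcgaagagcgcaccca
Reln: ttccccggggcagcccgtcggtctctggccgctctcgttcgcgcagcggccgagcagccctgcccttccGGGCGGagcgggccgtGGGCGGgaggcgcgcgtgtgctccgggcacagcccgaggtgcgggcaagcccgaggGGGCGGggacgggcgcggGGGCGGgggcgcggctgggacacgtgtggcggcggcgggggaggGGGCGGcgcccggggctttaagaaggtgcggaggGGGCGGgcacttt

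The Col3a1 stretch held the letters of 1 TATA box, with the first base 117 bases before the start, and no other match. Lrat held 1 CCAAT box and 1 GC box, and Reln held 6 GC boxes. Of the 5 other genes with an entry, Col4a2 held 2 GC boxes and 1 CCAAT box, Col1a2 held the same, Des held 2 GC boxes, and Rgs5 and Col4a1 held 1 CCAAT box each. These matches are letters in a window and were not compared with any binding data.

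Exon length here counts all annotated exons of a gene, merged over its transcripts. Per exon length, Dcn was by far the most abundant of the 10. Decorin, its product, is a small leucine-rich proteoglycan that binds collagen fibrils. Dcn averaged 229.9 ± 76.95 normalized reads per exon kb (SD, n = 12) and lay above Col4a1, the next gene, in 12 of 12 libraries without overlap. Col4a1 (33.6 ± 7.48), Rgs5 (29.1 ± 8.96), Col3a1 (28.6 ± 11.02), Col4a2 (25.6 ± 6.16) and Lrat (23.3 ± 6.06 normalized reads per exon kb) followed. Their order is not firm, since each of these lay above the next in only 5 to 8 of 12 libraries. Reln (11.9 ± 3.43 normalized reads per exon kb), with the longest exons of the 10 (23.738 kb), lay below Lrat in 12 of 12 libraries although their ranges overlapped. Before division by length, Reln had a mean of 284 normalized reads and Lrat of 125, so their order rests on the merged lengths. Col1a1 (8.68 ± 4.28), Col1a2 (8.02 ± 2.48) and Des (6.80 ± 1.94 normalized reads per exon kb) closed the order, and their ranges overlapped. Before division by length, the mean of Col1a2 (99.6, merged exons of 12.426 kb) was above that of Col1a1 (57.0, 6.563 kb).

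**Figure D1:**
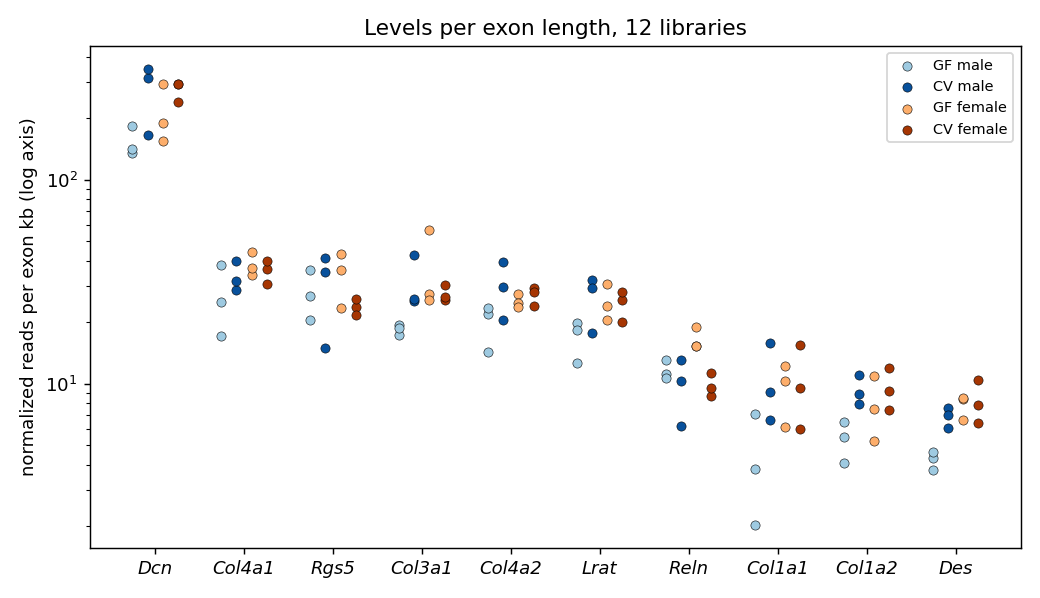
Level of each gene per exon length, in normalized reads per exon kb on a log axis, with 1 point per library (12 libraries) coloured by condition and labelled sex. Dcn, at 134.98 to 350.3, stands above all other genes in every library, and the remaining genes overlap with their neighbours.

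Lrat encodes lecithin retinol acyltransferase, the enzyme that esterifies retinol for storage, and marks stellate cells in the liver (ENSMUSG00000028003, chr3:82892579-82903973). Its normalized reads were 106, 67.9 and 97.8 in GF males and 95.2, 173 and 158 in CV males. In females they were 110.2, 165 and 128 in GF and 107, 137 and 151 in CV livers. In each sex the conditions overlapped, with CV male 1 among the GF males. The difference of CV and GF was 0.62 ± 0.28 in males (limma, log2(value + 1) scale, SE, adjusted p = 0.105) and -0.026 ± 0.28 in females (adjusted p = 0.945).

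Des encodes desmin, the intermediate filament of stellate and muscle cells (ENSMUSG00000026208, chr1:75360329-75368579). It was the lowest of the 10 in reads, with only 10 to 65 per library. Its normalized reads were 16.1, 17.3 and 14.2 in GF males and 28.6, 26.2 and 22.7 in CV males, so every CV male was above every GF male. The GF females had 31.7, 31.9 and 24.9, and the CV females had 23.97, 29.6 and 39.1, with overlap. On the log2 scale the male difference of 0.67 ± 0.32 (SE) did not pass the limma test (adjusted p = 0.128), and the female difference was 0.045 ± 0.32 (adjusted p = 0.918). An antisense gene on the opposite strand overlaps an exon of Des, but it had at most 2 reads in a library.

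Reln encodes reelin, a large secreted glycoprotein best known from the brain and made in the liver by stellate cells (ENSMUSG00000042453, chr5:21884454-22344702). In GF females it had 364, 362 and 450.5 normalized reads, and in CV females 267, 207 and 226. All 3 CV females thus lay below all 3 GF females, the only non-overlap of the 10 genes in females. Over all 11782 genes tested, 31% had every CV female below every GF female. In the same females the summed level of 9 sinusoidal endothelial markers ranged from 2423 to 4269 in GF and from 1487 to 1679 in CV livers, and its part in the Reln values was not tested. Over both sexes the endothelial scavenger receptor genes Stab1 and Stab2 had means of 635 and 926 in GF and of 178 and 249.7 in CV livers (6 each), while Clec4g had means of 308 and 389 and Lyve1 of 77.8 and 91.0, so the markers of this list did not share a direction. The difference in females was -0.75 ± 0.26 (log2, SE, limma adjusted p = 0.0243). In males the values were 263, 254 and 309 in GF and 146, 311 and 244 in CV livers, with overlap and with CV male 1 lowest. The male difference was -0.30 ± 0.26 (adjusted p = 0.413), and over both sexes it was -0.52 ± 0.19 (adjusted p = 0.0231). Leaving out the library labelled CV male 3 gave -0.55 for Reln over both sexes (adjusted p = 0.0270). This call was lost without GF male 3, GF female 3 or CV female 2 (adjusted p = 0.0589, 0.0511 and 0.0602).

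Other scalings moved Reln across 0. After scaling to all reads the change in Reln over both sexes was 0.037 (adjusted p = 0.897), and scaled to the reads outside the 7 abundant loci it was -0.98 (adjusted p = 0.0022). The median change of all genes was 0.62 and -0.38 under these scalings and 0.075 in the deposited values. With a trend on the length and GC content of each gene's longest transcript removed from each library, it was 0.64 in Reln (adjusted p = 0.0015), the opposite direction. The call in females was lost without GF female 3, CV female 2 or CV female 3 (adjusted p = 0.0808, 0.0893 and 0.0680). Over all alternatives the adjusted p of Reln ranged from 0.00296 to 0.88 in females and from 0.00133 to 0.897 over both sexes.

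Rgs5 encodes a regulator of G protein signalling found in pericytes and stellate cells (ENSMUSG00000026678, chr1:169655501-169695813). Its normalized reads in males were 122, 164 and 93.5 in GF and 67.7, 187 and 159.9 in CV livers. In females they were 165, 197 and 107 in GF and 108, 98.7 and 119 in CV livers. The CV males lay on both sides of the GF males, and CV female 2 was the only CV female below every GF female. The differences were 0.039 ± 0.35 in males (limma adjusted p = 0.943) and -0.48 ± 0.35 in females (adjusted p = 0.249).

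Dcn (ENSMUSG00000019929, chr10:97479609-97518143) had 788, 1066 and 822 normalized reads in GF males and 963, 1848 and 2045 in CV males. In females it had 1113, 1721 and 905 in GF and 1398, 1720.4 and 1714 in CV livers. CV male 1 lay among the GF males and GF female 2 just above the CV females, so the conditions overlapped in each sex. Over both sexes the change was 0.61 ± 0.22 (log2, SE, limma adjusted p = 0.0233), while males (0.80 ± 0.31, adjusted p = 0.0608) and females (0.42 ± 0.31, adjusted p = 0.261) alone did not pass. The Dcn call over both sexes was lost in 8 of the 12 fits that each left out 1 library, with an adjusted p from 0.0512 to 0.0621. Without the library labelled CV male 3 the Dcn change over both sexes was 0.51 (adjusted p = 0.0621), and scaled to the reads outside the abundant loci it was 0.15 (adjusted p = 0.558, with a range over all alternatives from 7.3e-05 to 0.558).

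Type I collagen is the main fibril of scar tissue and is built from the products of Col1a1 (ENSMUSG00000001506, chr11:94936224-94953042) and Col1a2 (ENSMUSG00000029661, chr6:4504814-4541544). Col1a1 had 25.1, 13.3 and 46.8 normalized reads in GF males and 59.9, 104 and 43.6 in CV males. Only the library labelled CV male 3 reached into the GF range, and the GF male values rest on 10 to 33 reads. The male difference was 1.33 ± 0.45 (log2, SE, limma adjusted p = 0.0369), with a 95% confidence interval from 0.37 to 2.29. Without CV male 3 it was 1.61 (adjusted p = 0.0258). The Col1a1 difference in males was 1.64 when scaled to all reads (adjusted p = 0.0156) and 1.04 when scaled to the reads outside the abundant loci (adjusted p = 0.129). The male call in Col1a1 was lost without GF male 1, GF male 2, CV male 1 or CV male 2 (adjusted p = 0.0963, 0.141, 0.0764 and 0.141), and over all alternatives its adjusted p ranged from 0.00201 to 0.668. In females Col1a1 had 67.9, 79.8 and 40.3 in GF and 39.1, 62.5 and 101 in CV livers, with a difference of 0.060 ± 0.45 (adjusted p = 0.922).

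Col1a2 had 80.6, 50.6 and 68.0 normalized reads in GF males and 98.9, 137 and 111 in CV males. All 3 CV males were above all 3 GF males, but the difference of 0.80 ± 0.30 missed the threshold (log2, SE, limma adjusted p = 0.0521). The GF females had 93.6, 136 and 65.2, and the CV females 92.5, 115 and 148, with overlap and a difference of 0.31 ± 0.30 (adjusted p = 0.395). Over both sexes the Col1a2 change was 0.55 ± 0.21 (adjusted p = 0.0311), a call that was lost without GF male 2, GF female 1, GF female 3, CV male 2, CV female 2 or CV female 3 (limma adjusted p between 0.0521 and 0.0917). Scaled to the reads outside the abundant loci it was 0.098 (adjusted p = 0.723, with a range over all alternatives from 0.00027 to 0.723).

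The balance of the type I chains differed between the conditions by less than its spread. Col1a1 over Col1a2, per exon kb, was 1.01 ± 0.37 in GF and 1.08 ± 0.27 in CV livers (SD, n = 6 each). The level of such a ratio depends on the merged exon lengths, which are the same for both conditions. A two-sided exact permutation test that exchanged conditions within each sex gave p = 0.615 (400 relabellings, smallest possible p = 0.005, Benjamini-Hochberg adjusted p = 0.615 over 2 ratios). For Col4a1 over Col4a2 the ratio was 1.42 ± 0.26 in GF and 1.24 ± 0.23 in CV livers (n = 6 each, exact p = 0.23, adjusted p = 0.46). Without the library labelled CV male 3 the exact p of the Col4 ratio was 0.05 (adjusted p = 0.1).

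Type III collagen, the product of Col3a1 (ENSMUSG00000026043, chr1:45311538-45349706), forms thin reticular fibres with type I collagen. GF males had 191, 170.3 and 184 normalized reads and CV males had 249, 419.8 and 256, without overlap. GF females had 270.2, 556 and 253, and CV females 253, 262 and 299. GF female 2 was thus the highest of all 12 libraries, and the other GF females lay within or just below the range of the CV females. The difference was 0.72 ± 0.29 in males (log2, SE, limma adjusted p = 0.0753) and -0.31 ± 0.29 in females (adjusted p = 0.379). The test of the difference between the sexes gave 1.03 ± 0.41 for Col3a1 (adjusted p = 0.417).

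Neither chain of type IV collagen passed the test in either sex. Col4a1 had 127, 188 and 283 normalized reads in GF males and 214, 299.7 and 237 in CV males, and 254, 329.8 and 274 in GF females and 229, 271 and 299 in CV females. Its conditions overlapped in each sex, with differences of 0.39 ± 0.28 in males (log2, SE, limma adjusted p = 0.30) and -0.10 ± 0.28 in females (adjusted p = 0.772). Col4a2 had 94.9, 145 and 156 normalized reads in GF males and 198, 262 and 135 in CV males, and 183, 165 and 157 in GF females and 159, 194 and 187 in CV females. The library labelled CV male 3 was again the only CV male in the GF range. The Col4a2 difference in males was 0.57 ± 0.27 (adjusted p = 0.122), and without that library it was 0.82 (adjusted p = 0.0426). In females it was 0.097 ± 0.27 (adjusted p = 0.776).

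**Figure D2:**
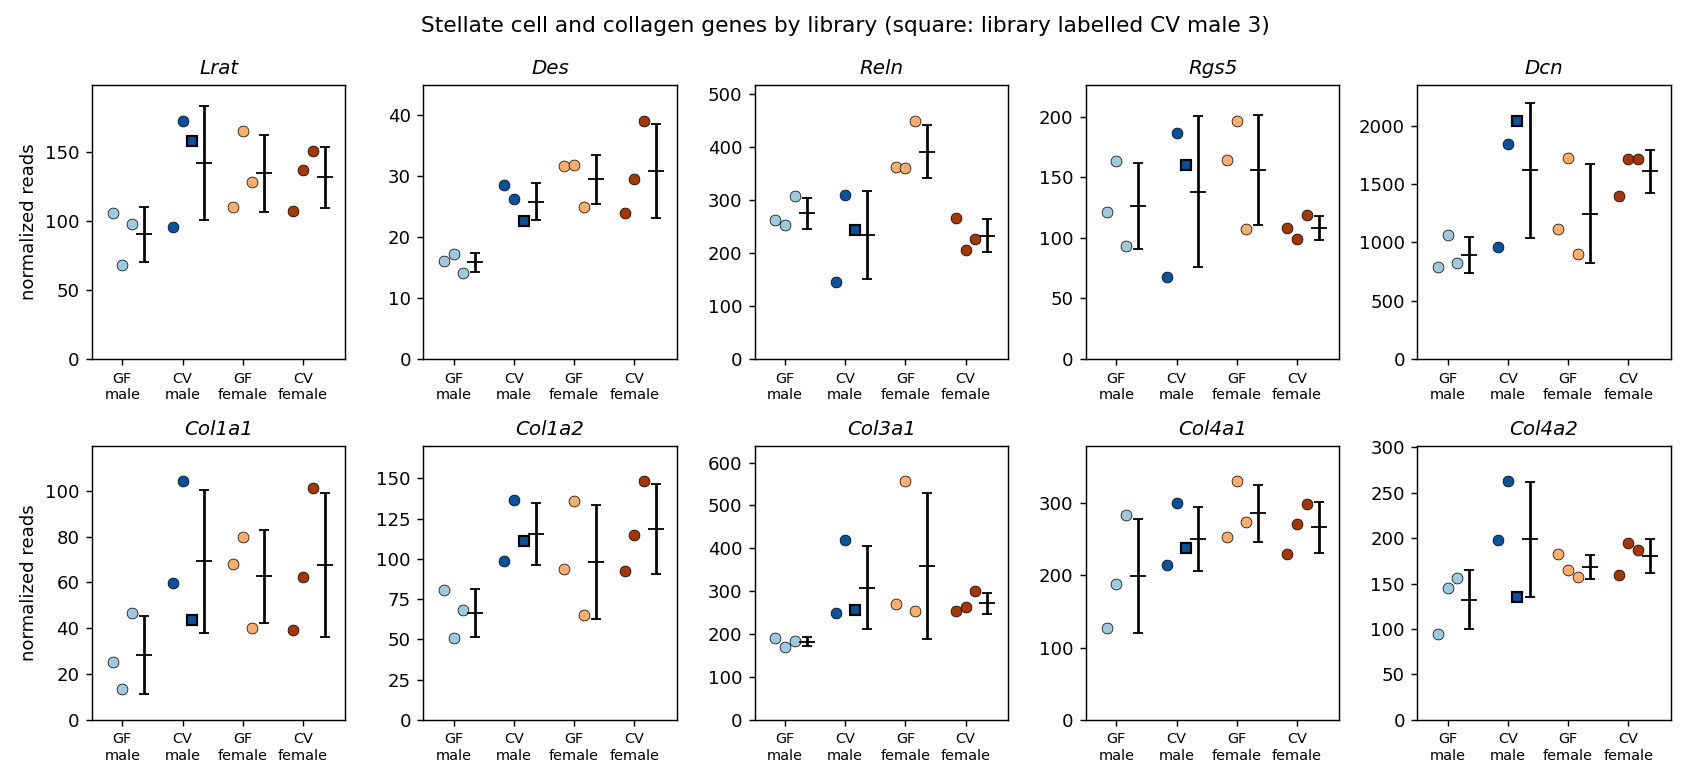
Normalized reads of the 10 genes in each library, on axes that start at 0, with the group mean and its SD as a black mark and bar beside the 3 points of each group. The square is the library labelled CV male 3. All 3 CV males lie above all 3 GF males for Col1a2, Col3a1 and Des, and all 3 CV females lie below all 3 GF females for Reln.

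Counted together, 1 of the 10 genes passed the test in males (Col1a1, higher), where 29.5% of the 11782 genes tested did (14.1% higher and 15.4% lower). In females 1 of 10 passed (Reln, lower) against 55.8% of all genes (29.8% higher and 26% lower). Over both sexes 3 of 10 passed (Col1a2 and Dcn higher, Reln lower) against 61.1% (32.3% higher and 28.7% lower). Without the library labelled CV male 3, 2 of 10 passed in males (Col1a1 and Col4a2, higher) against 25.2% of all genes. Over both sexes 4 of 10 then passed against 60.2%, with Col1a1, Col1a2 and Col4a2 higher and Reln lower. The median change of the 10 genes was 0.65 in males, 0.0097 in females and 0.32 over both sexes, beside 0.061, 0.075 and 0.075 for all genes tested. CV males lay above GF males without overlap for 3 of the 10 genes, beside 22% of all genes. Without the library labelled CV male 3 this held for 5 of the 10 (Col1a1 and Col4a2 in addition), beside 26.3% of all genes.

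No difference in response between the sexes passed the test. The difference between the male and the female change passed for 0 of the 10 genes and 0 of all 11782 genes in limma (0% called, 1382 genes at an unadjusted p under 0.05), and edgeR with a filter on low counts also called 0. Without that filter edgeR called 105 genes. Limma called 291 without CV male 1 and 4 without the library labelled CV male 3. None of these genes were among the 10. DESeq2 called 24 genes, none of them among the 10, of which 9 had no adjusted p. Among the 10, 1 gene had an unadjusted p under 0.05 (Col3a1). Within GF livers all 10 genes had lower means in males than in females on the log2 scale (median difference -0.55, beside 0.033 for all genes tested). In the limma test 0 of the 10 passed, beside 1.63% of all genes. The abundant loci took 51.7, 42.3 and 41.8% of the reads in GF males and 58.2, 68.0 and 69.4% in GF females, without overlap. Sex and this share can therefore not be told apart in GF livers. The largest GF sex differences were -1.23 ± 0.45 for Col1a1 (adjusted p = 0.172), -0.89 ± 0.29 for Col3a1 (adjusted p = 0.133) and -0.85 ± 0.32 for Des (adjusted p = 0.184). Within CV livers the differences ranged from -0.23 in Des to 0.22 in Rgs5, with 0 calls in limma and edgeR beside 0.0594% and 0.239% of all genes. Without the library labelled CV male 3, limma called 77 of 11782 genes in this comparison and again 0 of the 10. At an unadjusted p under 0.05 there were 4 of the 10 genes in GF livers, beside 2078 of all 11782, and 0 in CV livers, beside 601. The 4 became 0 when scaled to all reads and 9 when scaled to the reads outside the abundant loci.

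**Figure D3:**
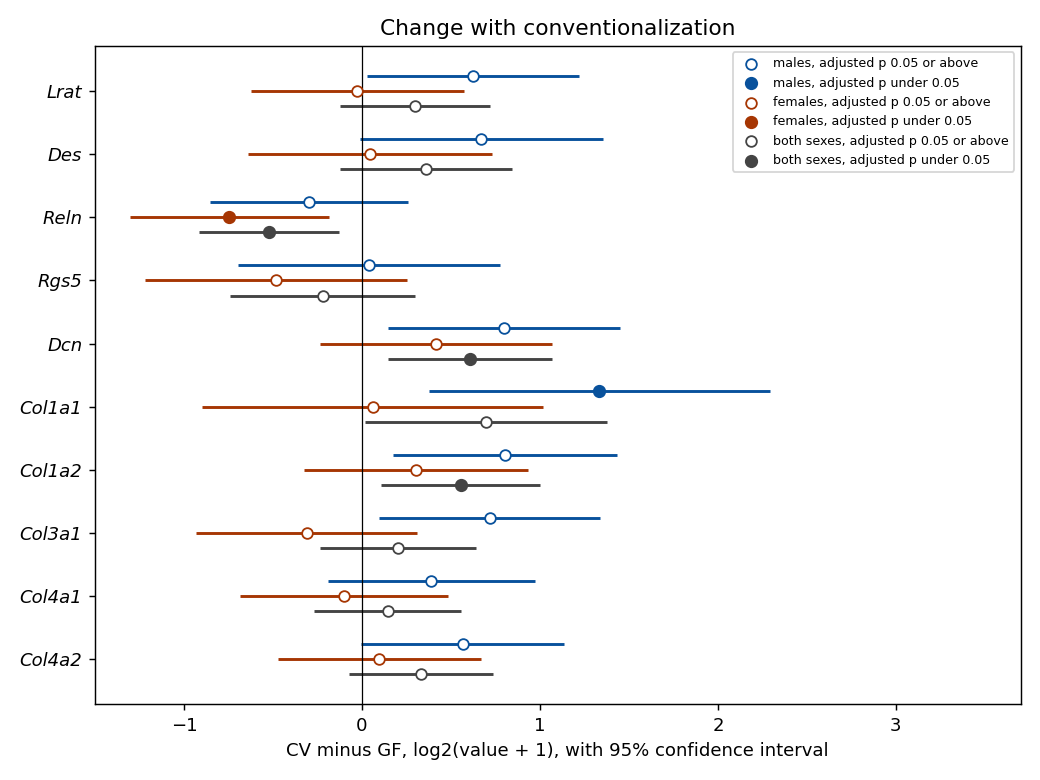
Change from GF to CV on the log2(value + 1) scale (x axis) for each gene in males, in females and over both sexes, with 95% confidence intervals from limma and filled points for an adjusted p under 0.05. Most intervals include 0, and the filled points are Col1a1 in males (1.33), Reln in females (-0.75) and, over both sexes, Reln (-0.52), Dcn (0.61) and Col1a2 (0.55).

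In 3 of the 4 groups the same library was highest in most of the 10 genes. CV male 2 had the highest value of its group in 8 of the 10 genes, GF female 2 in 8 and CV female 3 in 7. CV male 1 had the lowest value in 7 of the 10, GF female 3 in 7 and CV female 1 in 8. The GF males had no such order, with 3, 3 and 4 of the highest values and 3, 5 and 2 of the lowest. Over the 12 libraries the closest profiles, by the root-mean-square difference of centred log2 values, were Col1a2 with Lrat (0.25), Col4a1 with Col4a2 (0.26), Col3a1 with Lrat (0.28) and Col1a2 with Col3a1 (0.30). These points share their libraries and depths, and they are a description without a test. Among all other genes tested, the closest to Col3a1 were Pea15a (0.15), Tuba1a (0.20) and Ift43 (0.21), where the median gene stood at 0.75. The closest to Lrat were Pea15a (0.20), Esam (0.22) and Eng (0.23), beside a median of 0.70, and the closest to Col4a1 were Tpm4 (0.22), Cpd (0.23) and Prkx (0.23), beside a median of 0.69.

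Markers of other cell types were summed by list, and the sums were not tested. In every list but that of blood, single markers had means that were higher and means that were lower in CV livers. The summed level of 9 sinusoidal endothelial markers ranged from 1600 to 4269 normalized reads in GF and from 768 to 2141 in CV libraries. That of 8 Kupffer cell markers ranged from 1003 to 1896 in GF and from 1190 to 2694 in CV libraries, and that of 7 hepatocyte markers from 92759 to 420979 and from 344644 to 564201. Haemoglobin and Alas2, 4 blood genes, summed to between 2216 and 26839 in GF and between 763 and 2631 in CV libraries. The 6 markers of portal fibroblasts, which also make collagen, summed to between 204 and 415 in GF and between 222 and 419 in CV libraries. Most of this was Gas6, at a mean of 169 in GF and 270 in CV livers. Eln and Entpd2 also had higher CV means, while Thy1, Fbln2 and Cd34 had lower ones. The 7 myofibroblast markers summed to between 537 and 1107 in GF and between 604 and 1836 in CV libraries, with Timp1, Lox and Tnc under a mean of 10. Most of that sum was Spp1, at a mean of 767 in GF and 875 in CV livers (6 each). Spp1 is also in the cholangiocyte list and made up most of its sum, so the myofibroblast and cholangiocyte sums are not separate results. The remaining lists ranged from 454 to 1062 in GF and from 527 to 1616 in CV libraries for cholangiocytes, from 209 to 309 and from 123 to 319.6 for smooth muscle and pericytes, from 26.8 to 293 and from 47.7 to 147 for mesothelium, and from 9.58 to 31.2 and from 16.4 to 83.3 for adipose tissue. All these ranges overlapped over both sexes. Within females all the sums but those of stellate cells, portal fibroblasts and mesothelium were without overlap. Among them, the myofibroblast sum ranged from 941 to 1072 in GF and from 737 to 852 in CV females, and that of smooth muscle and pericytes from 284 to 309 and from 161 to 186. Within males only the stellate cell and Kupffer cell sums were without overlap, the latter with 1003 to 1040 in GF and 1190 to 2474 in CV livers. The part of these markers in the results on the 10 genes was not tested.

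Genes around these 10 were followed in lists by role, and over both sexes 32.3% of all genes tested rose and 28.7% fell. Scaled to all reads, 5926 of all 11782 genes rose and 1615 fell. Scaled to the reads outside the abundant loci, 2145 rose and 4863 fell. With the length and GC trend removed, 3814 of 11731 rose and 2862 fell. Counts of a list under a scaling stand beside these counts of all genes. Of 39 further collagen chains, 24 had a mean under 10 normalized reads and were not tested, and of the 15 tested 7 fell and 0 rose over both sexes, with a median change of -0.68. Scaled to the reads outside the abundant loci 9 fell and 0 rose, scaled to all reads 4 fell and 3 rose, and with the length and GC trend removed 4 fell and 4 rose, so this direction depended on the scaling. Col27a1, a fibrillar chain of cartilage, averaged 774 ± 436 normalized reads in GF males and 144 ± 129 in CV males, and 227 ± 74.0 in GF females and 32.3 ± 3.00 in CV females (SD, n = 3 each). Its change was -2.65 ± 0.36 (log2, SE, limma adjusted p = 1.3e-05), and it stayed negative under each of these scalings. Col20a1 changed by -3.86 ± 0.56 (adjusted p = 2.7e-05), from 26.8 ± 9.77 to 2.57 ± 2.33 in males and from 57.0 ± 36.3 to 2.02 ± 3.00 in females, but an exon of it overlaps another gene. Col5a3 (-2.85) and Col4a3 (-2.34), named after their values were seen, also fell.

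Of 15 tested genes that fold and export collagen in the endoplasmic reticulum, 8 rose and 3 fell over both sexes (median 0.63), and scaled to the reads outside the abundant loci 4 rose and 4 fell. Crtap, a subunit of the prolyl 3-hydroxylase complex, changed by 1.57 ± 0.23 (log2, SE, limma adjusted p = 3e-05), from 14.2 ± 2.70 to 59.0 ± 5.01 normalized reads in females. Tmem38b, an ion channel of the endoplasmic reticulum, changed by 1.54 ± 0.22 (adjusted p = 2.6e-05), and an exon of it overlaps another gene. P4ha1, a catalytic subunit of prolyl 4-hydroxylase, fell by 1.43 on the log2 scale (adjusted p = 2.8e-06), from 161 ± 14.5 to 64.4 ± 6.55 in males and from 191 ± 22.9 to 64.8 ± 6.67 in females. Mia3, which loads procollagen into transport carriers, fell by 0.68 (adjusted p = 0.00113), but was at -0.12 (adjusted p = 0.596) when scaled to all reads, and in males it did not pass (adjusted p = 0.242). Many of these enzymes are also used by hepatocytes for other secreted proteins.

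Of 8 genes for trimming and crosslinking 1 rose and 2 fell, among them Bmp1, a procollagen C-proteinase, at -0.88 ± 0.19 (log2, SE, limma adjusted p = 0.00086). Scaled to all reads, Bmp1 was at -0.32 (adjusted p = 0.257). Of 4 genes for collagen breakdown and its inhibition 3 rose, and Mmp14, a membrane-bound collagenase, changed by 0.82 ± 0.19 (adjusted p = 0.0016). None of the 4 passed when scaled to the reads outside the abundant loci, where Mmp14 was at 0.37 (adjusted p = 0.21) in limma.

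Among 16 proteoglycan and interstitial matrix genes 5 rose and 0 fell over both sexes (median 0.42), and scaled to the reads outside the abundant loci 2 rose and 4 fell. Lum and Prelp, which encode small leucine-rich proteoglycans like decorin, were among those that rose. Lum went from 16.3 ± 7.02 to 70.1 ± 28.3 normalized reads in males and from 27.7 ± 20.3 to 69.7 ± 9.27 in females, a change of 1.78 ± 0.33 (log2, SE, limma adjusted p = 0.00024). Prelp changed by 1.12 ± 0.19 (adjusted p = 0.00012), and an exon of it overlaps another gene.

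Of 14 tested partners of type IV collagen in basement membranes 5 fell and 1 rose (median -0.37), scaled to the reads outside the abundant loci 9 fell and 0 rose, but scaled to all reads, and with the length and GC trend removed, 2 fell and 2 rose. Agrn, which encodes the heparan sulphate proteoglycan agrin, went from 500.3 ± 172 to 186 ± 65.1 normalized reads in males and from 482 ± 128 to 154 ± 46.4 in females (change -1.53 ± 0.23, log2, SE, limma adjusted p = 3.5e-05). Hspg2, which encodes perlecan, changed by -1.06 ± 0.24 (adjusted p = 0.00119), and by 0.47 (adjusted p = 0.0622) with the length and GC trend removed. Of 6 collagen receptors 1 rose and 2 fell, with 2 and 1 when scaled to all reads and 0 and 3 when scaled to the reads outside the abundant loci. Among them Itga10, an integrin chain, changed by -3.03 ± 0.32 (adjusted p = 2.1e-06). An exon of Itga10 overlaps another gene.

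Of 22 further stellate cell genes tested, 9 rose and 2 fell (median 0.35), but scaled to the reads outside the abundant loci 3 rose and 5 fell. Colec11, a collectin of stellate cells, went from 135 ± 19.4 to 315 ± 63.3 normalized reads in males and from 169.7 ± 40.1 to 346 ± 34.01 in females (change 1.12 ± 0.17, log2, SE, limma adjusted p = 4.5e-05). Angptl6, an angiopoietin-like secreted protein, changed by 1.54 ± 0.20 (adjusted p = 8.1e-06), and an exon of it overlaps another gene. Colec11 and Angptl6 stayed positive under each scaling and with the length and GC trend removed.

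Of 10 myofibroblast and contractile genes 1 rose and 2 fell, with 5 and 0 when scaled to all reads and 0 and 4 when scaled to the reads outside the abundant loci. Notch3, a receptor of mural cells, was at -1.07 ± 0.36 (log2, SE, limma adjusted p = 0.0176) and at -0.10 (adjusted p = 0.83) once the length and GC trend was removed, and an exon of it overlaps a gene on the opposite strand. Of 17 genes for TGF-beta and PDGF signals, which drive stellate cell activation, 3 rose and 3 fell, with 6 and 0 when scaled to all reads and 0 and 5 when scaled to the reads outside the abundant loci. Smad4, the shared transducer of TGF-beta signals, changed by 0.45 ± 0.16 (adjusted p = 0.0226) and by -0.014 (adjusted p = 0.948) when scaled to the reads outside the abundant loci. For reelin, the receptor gene Vldlr was tested and did not pass (0.20), and Lrp8 and Dab1 had means under 10 normalized reads.

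Of 14 genes for handling retinyl esters, the store that Lrat fills, 8 rose and 3 fell (median 0.97), and scaled to the reads outside the abundant loci 4 rose and 5 fell. Ces1d, a carboxylesterase with close paralogs, changed by 2.38 ± 0.25 (log2, SE, limma adjusted p = 1.6e-06), from 891 ± 356 to 4946 ± 851 normalized reads in females. Pnpla2, a lipase of triglyceride stores, changed by 1.66 ± 0.19 (adjusted p = 4.2e-06). Both genes are used by hepatocytes as well.

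**Figure D4:**
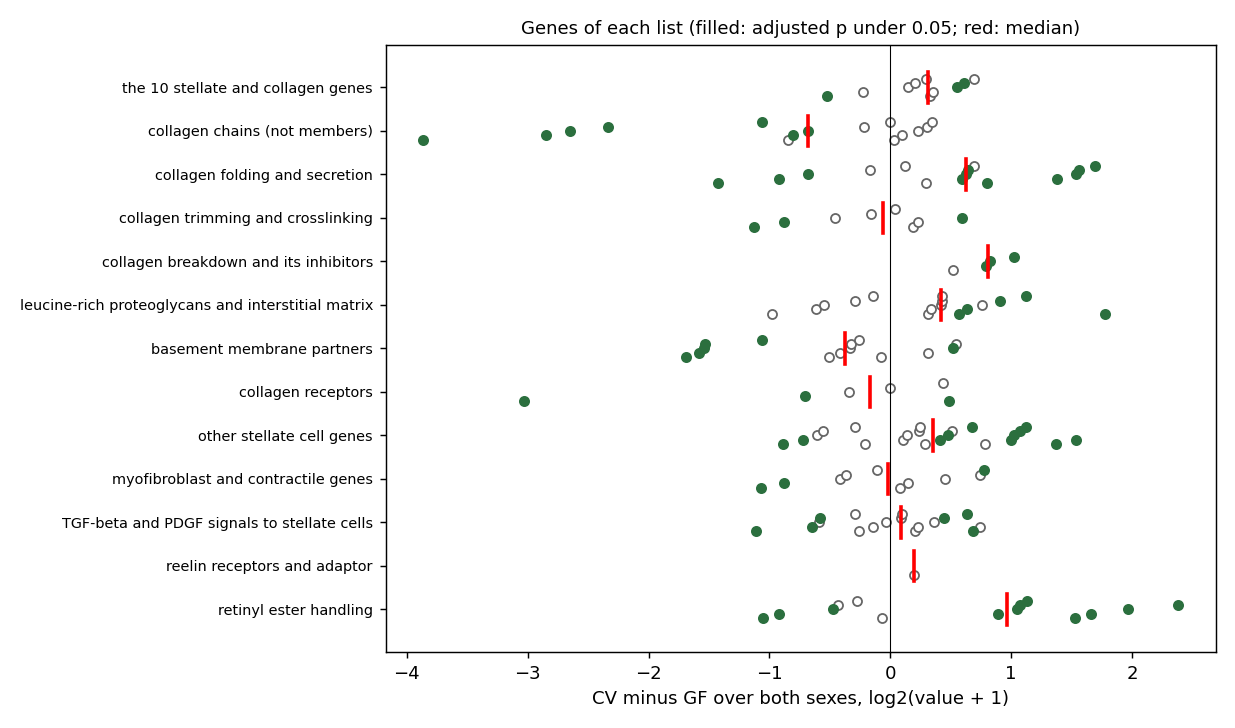
Change from GF to CV over both sexes on the log2(value + 1) scale (x axis) for the tested genes of each list (rows), with filled points for a limma adjusted p under 0.05 and a red bar at the list median. The median of the 10 genes (0.32) lies between that of the other collagen chains (-0.68) and that of the retinyl ester genes (0.97). These medians belong to the deposited scaling and shift with it, as given in the text.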

How the data were processed

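Stranded poly(A) libraries from 12 snap-frozen livers were sequenced on an Illumina HiSeq. The deposited signal per gene is a read count that the authors divided by 1 size factor per library. The submitters' processing notes name HTSeq 0.6.1p1, DESeq2 and GRCm38. The aligner, the annotation and whether counting used strand were not given in the sources used here. Divided by the value of a single read, 100% of the deposited values came out whole within 0.01 reads, so reads were recovered. GENCODE M21 on GRCm38 listed 97.9% of the gene identifiers and gave coordinates and exon lengths. The paper given with the series describes another experiment and served for style only.

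Groups and replicate numbers came from the sample titles. Genes with a mean value of at least 10 (11782) entered 1 limma fit (3.58.1, R 4.3.3, variance trend) on log2(value + 1) with 4 group means, Benjamini-Hochberg adjustment and a threshold of 0.05. The log2(value + 1) scale understates changes of low genes. Alternatives were edgeR 4.0.16 quasi-likelihood (3854 genes called in males, 6852 in females and 7634 over both sexes) and DESeq2 1.42.0 on the recovered reads, other filters, pseudocounts and scalings, read shares as covariates, removal of a loess trend on length and GC content, thinning, the replicate number as a block, and leaving out each library. The covariate holding the abundant loci share, edgeR without CV male 3, and the fit without CV male 2 and CV male 3 were added after the data were seen.

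The fit was tested on simulated reads with changes of 1 and of 2 on the log2 scale, in 100 genes each. Changes of 1 were recovered for 44% of these genes in males, 41% in females and 83% over both sexes. Changes of 2 were recovered for 93, 92 and 98%. The simulated spread between libraries was a set value, not an estimate from these data. The members and gene lists were chosen with earlier results of these data known. All 10 members are named. From each list up to 2 genes per direction are named, those with the smallest adjusted p over both sexes whose conditions did not overlap in either sex, and for Col3a1, Col4a1 and Lrat the 3 closest profiles. Replicate numbers named separate mice. Deviations of same-numbered libraries correlated at 0.193, 0.118 and 0.173 between CV males and CV females. Between GF males and GF females they correlated at 0.0593, 0.403 and 0.0682. These values do not establish that mice were paired, and the main fit did not pair them. With the replicate number as a block, the comparison of the sexes in GF and in CV livers made the same 0 calls among the 10. Read totals differ between conditions, and precision covers counting error and the spread between mice only.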

Additional observations from a re-analysis of the deposited data

Results flagged for a closer look

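Samples that stood apart from the other libraries of their condition were sought in 20 groups of 6, with Dixon's 95% critical value of 0.625 on the gap over the range, which chance passes in about 1 of 20 groups. In 3 groups a library passed. Col3a1 was 556 normalized reads in GF female 2, where the next GF library had 270.2 (ratio 0.741). Dcn was 1721 in the same library, where the next had 1113 (ratio 0.652). Col3a1 was 419.8 in CV male 2, where the next CV library had 299 (ratio 0.705). GF female 2 held the fewest reads (5993619), but GF female 3, which was not flagged, held nearly as few (5998557). CV male 2 was 1 of the CV libraries with a high share of abundant loci (21.4%). The part of read number or of this share in these values was not tested.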

How the results depend on the processing

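The number of the 10 genes called in males (1) was 4 with edgeR without a filter, 2 with DESeq2, with a minimum mean of 50, without the library labelled CV male 3 in limma and in edgeR, and with the replicate block, 6 when scaled to all reads, 7 after removal of the trend on length and GC content, and 0 without a minimum mean, when scaled to the reads outside the abundant loci, with the mitochondrial ribosomal RNA share or the abundant loci share as covariate, and when thinned. Beside these, limma called 3612 of all 11782 genes in males scaled to all reads, 3119 outside the loci and 2723 of 11775 when thinned. It called 2982 of 11731 with the trend removed, 2878 of 22953 without a minimum mean and 2971 of 8255 with a minimum of 50. The replicate block gave 3466 of 11782 and the mitochondrial covariate 3. EdgeR without a filter called 4171 of 22953 genes and DESeq2 4157. In females the number of the 10 (1) was 0 with edgeR without a filter and with either covariate, 4 under each of those scalings (4 higher for all reads, 4 lower outside the loci), and 3 with the trend removed. Of all genes in females, 6951 of 11782 were called scaled to all reads, 6505 outside the loci and 5910 of 11731 with the trend removed. EdgeR without a filter called 7564 of 22953 there, and the mitochondrial covariate left 0. Over both sexes the number of the 10 (3) was 8 when scaled to all reads and with the trend removed, 2 when scaled outside the loci (both lower), 1 when thinned, and 0 with either covariate. Of all genes over both sexes, 7541 of 11782 were called scaled to all reads and 7008 outside the loci. With the trend removed 6676 of 11731 were called, and 6549 of 11775 when thinned. Leaving out 1 library gave 0 to 4 calls among the 10 in males, 0 to 1 in females and 0 to 4 over both sexes. The male calls were 0 without GF male 1, GF male 2 or CV male 2 and 4 without GF female 2 (Col1a1, Col1a2, Col3a1 and Dcn). Of all 11782 genes, limma then called 1604, 3673, 3246 and 3884 in males, in the same order. The calls among the 10 over both sexes were 0 without GF female 3 or CV female 2, and 1 without GF female 1, CV male 2 or CV female 3. Without CV male 2 and CV male 3, Reln alone was called in males (-0.90), and Reln (-0.82) and Rgs5 (-0.67) over both sexes, but CV male 1 is then the only CV male and is assumed to vary like the other groups. The interaction and the sex differences in GF and in CV livers had 0 calls among the 10 in the main fit and 0 to 0 when 1 library was left out.

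Where the deposited or the alternative value passed the test, directions turned for Lrat in females, at 0.78 when scaled to all reads (adjusted p = 0.0361), and for Reln. In females Reln was at 0.061 when scaled to all reads, 0.52 with the mitochondrial ribosomal RNA share, 0.71 with the trend removed and 1.10 with the abundant loci share. Over both sexes Reln was at 0.037, 0.38, 0.64 and 0.86 in the same order. Changes that did not pass in the deposited scaling crossed 0 as well, among them those in females of Col3a1 (from -0.93 to 1.42 over all settings), Col4a1 (from -0.72 to 0.71), Col4a2 (from -1.05 to 0.95) and Rgs5 (from -1.10 to 2.92). The cause was not tested. Among all genes over both sexes, 3807 rose and 3387 fell in the deposited scaling, 5926 and 1615 when scaled to all reads, and 2145 and 4863 when scaled to the reads outside the abundant loci, and with the covariates 0 and 7 genes were called (1985 and 1046 at an unadjusted p under 0.05). The abundant loci share did not overlap between the conditions, so it and the condition cannot be told apart by these fits. For GF and CV livers of the same sex the replicate numbers gave correlations of -0.23 to 0.019 and did not pair the mice, and the replicate block added Dcn in males (0.80, adjusted p = 0.0418) and changed no other call among the 10. Des was not tested with a minimum mean of 50. Depth limits Col1a1 and Des most, which had as few as 10 reads.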
